A study of Mus musculus with 10 samples.

Results

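The distal part of mouse chromosome 6 between 128500000 and 133200000 (GRCm39) holds the natural killer gene complex and, beyond it, the bitter taste receptor and salivary proline-rich protein genes. The genes described here were chosen by position, as those whose lowest start lies in this interval, and by a minimum of 10 counts summed over all 10 libraries. Of 207 annotated genes in the interval, 70 met that minimum, out of 25855 that met it among 55414 identifiers in the whole data set. The remaining genes of the interval comprised 115 with no count in any library and 22 with 1 to 9 counts. Of the 70 members, 51 also passed the expression filter and were tested among 18654 genes. The interval was proposed because some of its genes differed between the genotypes in these same libraries, so the counts below describe it and are not independent evidence for it.

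The members were read in RNA sequencing libraries of the jejunum, which is the middle segment of small bowel, in male C57BL/6J mice fed a high-fat diet. In the 5 RetSat ko libraries the mice were RetSat flox/flox and carried villin-Cre-ERT2, a tamoxifen-activated Cre recombinase driven by the villin promoter, which is active in intestinal epithelial cells and not in lymphocytes. In the 5 control libraries the mice were RetSat flox/flox without the transgene. Before sampling, all 10 had 5 days of tamoxifen followed by 14 weeks of a 60 kcal% fat diet. Their age was not given. Loss of Retsat and presence of the Cre recombinase go together in this design and cannot be told apart. The labels do not state in which strain the floxed allele or the transgene was made, or outright that each library came from a separate animal, so every p reflects only how far these samples spread.

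The natural killer gene complex encodes C-type lectin-like receptors that lymphocytes use to read the state of other cells. Some of them inhibit and some activate. Many Ly49 receptors and CD94/NKG2 pairs bind MHC class I molecules, and NKG2D (Klrk1) binds stress-induced ligands. Several NKR-P1 receptors (Klrb1 genes) bind Clec2 lectins, whose genes lie interleaved with theirs. In the gut many of these receptors are found on intraepithelial and lamina propria lymphocytes, while some Clec2 lectins are made by the epithelium itself. The complex is known for families of near-identical genes and pseudogenes whose number differs between inbred strains.

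Retsat, the gene targeted by Cre, had 16.8, 16.0, 16.4, 15.4 and 33.4 CPM (counts per 1000000 of the normalised library) in RetSat ko and 518, 387, 576, 340 and 381 CPM in control. The groups did not overlap, and 4.45% of the control level was left in RetSat ko. The log2 fold change was -4.49 ± 0.277 (SE; edgeR adjusted p = 0.000101). Libraries held 102844680 to 128730695 counts, of which the interval took 0.109 to 0.141% in RetSat ko and 0.0958 to 0.123% in control. Epithelial marker genes summed to 29143 to 46927 CPM in RetSat ko and 31609 to 51528 CPM in control, so markers of the labelled tissue were present in every library. All 8 of them had negative log2 fold changes, and 3 an unadjusted p under 0.05 (Sis at -0.58, Lct at -0.53 and Vil1 at -0.31), but none passed (edgeR adjusted p = 0.314, 0.335 and 0.364). Single libraries held much more of other tissues than the rest: acinar marker genes of the pancreas reached 2529 CPM in RetSat ko 2, against 7.70 CPM in the lowest library, control 2, and B cell markers reached 162 CPM in RetSat ko 2 and 71.0 CPM in control 4, against 7.92 CPM in control 3.

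Along the interval, the members that passed the test were annotated pseudogenes, while the lectin receptors and the abundant epithelial lectins did not pass it. BC064078, Gm45063 and Gm5154 were higher in RetSat ko at an adjusted p under 0.05 (edgeR's quasi-likelihood test, Benjamini-Hochberg over all tested genes). They are 3 of 51 tested members (5.88%), where the share called among all tested genes was 0.0322%, with 0.0214% higher and 0.0107% lower in RetSat ko. Gm45063 and Gm5154 had no counts in control and so passed the expression filter only through RetSat ko, the group where they are high. At an unadjusted p under 0.05 there were 12 of 51 members (23.5%), 7 higher and 5 lower, against 12.2% of all tested genes, 6.79% higher and 5.45% lower. The 5 libraries of one group all lay outside the range of the other for 8 of 51 members (15.7%), 5 higher and 3 lower, against 2.31% of all tested genes, 1.58% higher and 0.729% lower. The median log2 fold change was 0.10 over the tested members and 0.020 over all tested genes, and the medians of its absolute value were 0.29 and 0.14.

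The members were also low: their median level was 0.435 CPM, against 7.01 CPM for all tested genes. An absolute log2 fold change above 1 was found in 12 of 51 members (23.5%), against 1.67% of all tested genes. Among genes under 1 CPM, where such differences are commoner, the counts were 11 of 35 members (31.4%) against 3.30% of 5427 tested genes. In flanks of the same width of 4.7 Mb, 3 of 84 genes (3.57%) before the interval and 2 of 41 (4.88%) after it exceeded that size, and none of these flanking genes was called by edgeR, although 14.3% and 19.5% of them had an unadjusted p under 0.05. An unadjusted p under 0.05 was found for 8 of the 35 members under 1 CPM (22.9%), against 5.42% of all tested genes under 1 CPM. None of these shares was tested against another.

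**Figure D1:**
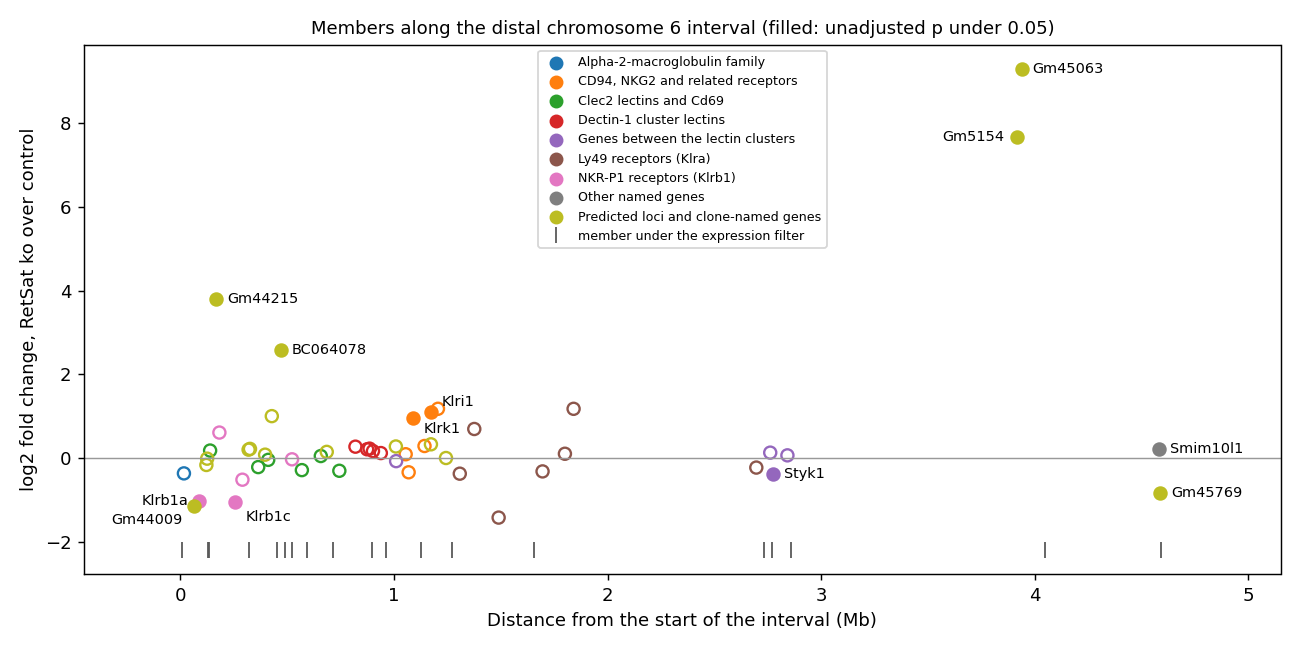
Log2 fold change of RetSat ko over control (y axis) for each of the 51 tested members against distance in Mb from the start of the interval (x axis), coloured by gene family and filled where the unadjusted p was under 0.05. Ticks at the foot mark the members under the expression filter; Gm45063 and Gm5154 stand highest, at fitted values that depend on the 0 counts in control, and BC064078 stands at 2.58.

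BC064078 (ENSMUSG00000087150.8, chromosome 6, 128969915 to 128985003, plus strand, GRCm39) is annotated as a transcribed unprocessed pseudogene and lies among the Clec2 genes. Its level was 4.27, 6.57, 6.49, 7.20 and 7.75 CPM in RetSat ko and 0.909, 0.952, 0.804, 1.70 and 1.05 CPM in control. The lowest RetSat ko library stood above the highest control library. BC064078 rose by 2.58 ± 0.226 on the log2 scale (SE; edgeR adjusted p = 0.000395). The means were 6.46 ± 1.33 CPM in RetSat ko and 1.08 ± 0.356 CPM in control (SD, n = 5 each). It stayed past the threshold under all 19 alternative settings, with log2 fold changes of 2.49 to 3.01. Of its windows of 50 bases, 0.340% occur in transcripts of another gene.

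Gm45063 and Gm5154 lie together near the far end of the interval, 20.8 kb apart, in the stretch of salivary proline-rich protein genes. Gm45063 (ENSMUSG00000108002.2, 132439465 to 132439936, minus strand) is a processed pseudogene, an intronless copy of a messenger RNA. It had 86, 61, 59, 90 and 108 counts in RetSat ko and 0 counts in each of the 5 control libraries. It was at least 127.5-fold higher in RetSat ko, taking 3 counts over the control group as the limit that a count of 0 allows (edgeR adjusted p = 0.000395). DESeq2 gave no adjusted p for it or for Gm5154. Gm5154 (ENSMUSG00000108041.2, 132415494 to 132418685, minus strand) is an unprocessed pseudogene close in sequence to proline-rich protein genes. It had 24, 20, 27, 17 and 41 counts in RetSat ko and 0 counts in every control library, and was at least 40.7-fold higher in RetSat ko (edgeR adjusted p = 0.0156). Its call was lost without RetSat ko 2, RetSat ko 3 or RetSat ko 5 (adjusted p = 0.0551, 0.0906 and 0.0592), without the 3 libraries richest in B cell markers (0.593) or the 4 richest in acinar markers (0.144), and with a lymphocyte score as covariate (0.0591), while its control counts stayed at 0.

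Both loci have close copies in the interval, so the sequences are shown beside their nearest copy. Each line gives 60 bases from the GENCODE M21 transcript, 5′ to 3′, and capitals mark the bases that differ within a pair. The stretch shown is the one without gaps that holds the most differing bases, so it is not typical of the alignment.
Gm45063: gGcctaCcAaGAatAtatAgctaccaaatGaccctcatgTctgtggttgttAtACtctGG
Gm43979: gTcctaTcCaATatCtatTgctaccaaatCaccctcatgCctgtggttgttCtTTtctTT
Gm5154: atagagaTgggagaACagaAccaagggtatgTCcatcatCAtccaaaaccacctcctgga
Gm4736: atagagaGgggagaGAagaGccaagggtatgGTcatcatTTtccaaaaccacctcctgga
Gm45063 differed from Gm43979 at 14 of these 60 bases and Gm5154 from Gm4736 at 8. Over the whole alignment, Gm45063 was 85.7% identical to Gm43979, and Gm5154 was 90.2% identical to Gm4736 and 92.6% identical to Prb1, a salivary proline-rich protein gene. Gm43979, Gm4736 and Prb1 had 0 counts in both groups, and so did the other nearest copies, Gm44003, Gm43975, Gm44727, Gm43978, Gm8882, Prpmp5 and Prb3-ps. No window of 50 bases of Gm45063 and 26.9% of those of Gm5154 occur in transcripts of another gene, so a read within a shared window could not be assigned to Gm5154 alone.

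Another locus of the same stretch, too low to be tested, had counts in RetSat ko only. Prh1 (132546772 to 132549904), which encodes a salivary proline-rich protein, had 12, 5, 2, 11 and 6 counts in RetSat ko and 0 in each control library. The sums were 36 (exact 95% Poisson interval 25.2 to 49.8) in RetSat ko and 0 (up to 3.69) in control, at least 11.4-fold higher. It was named after its values were seen. For Prh1, 21.0% of the 50-base windows occur in transcripts of another gene. Its nearest copy, Prp2 (88.2% identical), had 4 counts in RetSat ko and 0 in control. Acinar markers, read in the same library order, summed to 459, 2529, 8.84, 19.4 and 8.08 CPM in RetSat ko and 9.36, 7.70, 9.83, 121 and 236 CPM in control. Their part in the Prh1 counts was not tested.

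Over all 19 untested members, 16 (84.2%) had a higher mean CPM in RetSat ko, against 55.9% of all 7201 untested genes of at least 10 counts. For Gm44216, Gm44958 and Prh1 the groups did not overlap, all higher in RetSat ko, and non-overlap was found in 0.333% (higher) and 0.417% (lower) of those untested genes. Klrb1-ps1, a transcribed pseudogene of the NKR-P1 family, had 12, 8, 2, 14 and 15 counts in RetSat ko and 2, 0, 0, 0 and 0 in control. Gm44216, a processed pseudogene, had 5, 5, 11, 6 and 7 counts in RetSat ko and 0, 1, 1, 3 and 0 in control. Gm44958 had 10, 9, 21, 3 and 7 counts in RetSat ko and 1, 1, 0, 1 and 1 in control. Of its exon bases, 70.7% lie within exons of Magohb, so a read within them could not be assigned to either gene alone. Magohb itself averaged 7.39 CPM in RetSat ko and 6.76 CPM in control. These genes were named after their values were seen, and they carry no test. Klrb1-ps1, Gm44216, Gm44958 and Prh1, among others, reached the minimum of 10 counts only through RetSat ko, the group where they are high. The shares above therefore describe the untested members and are not evidence of a difference.

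**Figure D2:**
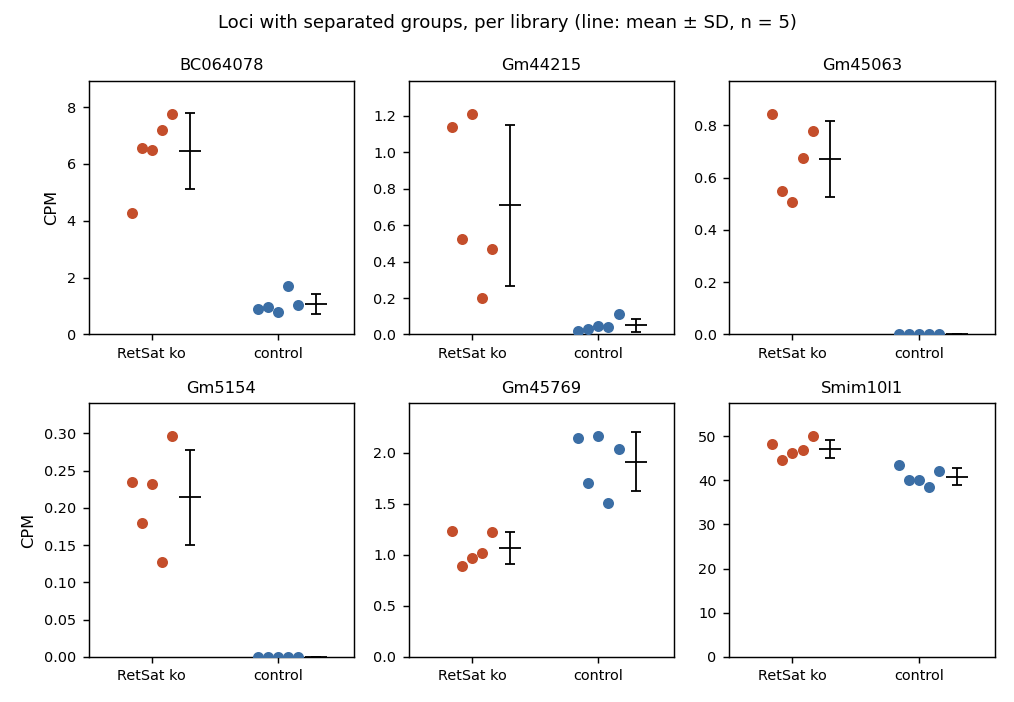
CPM (y axis) in each RetSat ko and control library (points) for 6 tested loci whose groups did not overlap, with the mean and SD (n = 5) as a line beside each group. Gm45063 and Gm5154 lie at 0 in every control library; Gm45769 lies lower in all 5 RetSat ko libraries and the other loci higher.

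Gm44215 (128668036 to 128670746), which GENCODE lists among loci that still need experimental evidence, had 1.14, 0.523, 1.21, 0.202 and 0.469 CPM in RetSat ko and 0.0185, 0.0307, 0.0467, 0.0432 and 0.110 CPM in control. The groups did not overlap, and RetSat ko libraries spread over a wider range than control libraries. The log2 fold change was 3.80 ± 0.572 (SE) and the adjusted p 0.0563. It passed the threshold without control 5 (adjusted p = 0.0488), RetSat ko 1 (0.0246) or RetSat ko 4 (0.0144) and with no expression filter (0.0390). The fit without RetSat ko 1 called 4.45% of all tested genes. Of its 50-base windows, 44.1% occur in transcripts of another gene.

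At the far edge, Smim10l1, a small integral membrane protein gene, and Gm45769 overlap on the same strand. Smim10l1 had 48.3, 44.7, 46.1, 46.9 and 49.9 CPM in RetSat ko and 43.5, 40.1, 40.0, 38.6 and 42.0 CPM in control. Gm45769 (133087437 to 133089264) had 1.23, 0.892, 0.969, 1.02 and 1.22 CPM in RetSat ko and 2.14, 1.70, 2.16, 1.51 and 2.04 CPM in control. For both the groups did not overlap, with Smim10l1 higher and Gm45769 lower in RetSat ko. The log2 fold changes were 0.21 ± 0.0568 and -0.84 ± 0.161 (SE), and neither passed (edgeR adjusted p = 0.291 and 0.216). Gm45769 passed in DESeq2 (adjusted p = 0.000417) and in the same fit without RetSat ko 1 (edgeR adjusted p = 0.0274).

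The genes next to the interval were read on either side of its limits. Before it, Pzp, a protease-binding protein of the alpha-2-macroglobulin family, had a log2 fold change of 0.09 ± 0.472 and the predicted gene Gm18009 one of 1.53 ± 0.487 (SE; edgeR adjusted p = 0.952 and 0.307). A2ml1, the second member by position and of the same family, averaged 0.336 ± 0.0680 CPM in RetSat ko and 0.432 ± 0.146 CPM in control (SD, n = 5 each; edgeR adjusted p = 0.632). After it, Kap, a kidney androgen-regulated protein gene, had 0.0780 CPM in RetSat ko and 0.773 CPM in control on average, with a log2 fold change of -3.27 ± 1.07 (SE; adjusted p = 0.314), and Etv6, a transcription factor gene, had one of 0.04 ± 0.0627 (adjusted p = 0.846). The interval starts 55.9 Mb from Retsat, and on chromosome 6 as a whole 5 of 1087 tested genes were called. Over all chromosomes, 6 of 18654 tested genes were called. The 5 on chromosome 6 included Retsat, the 3 called members and a gene outside both the interval and its flanks. At the count minimum, the members with the fewest counts were Gm7039 with 11 and Gm44000 and Gm47861 with 12, and genes left out just under it included Klra13-ps with 9 and Clec12b with 8.

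**Figure D3:**
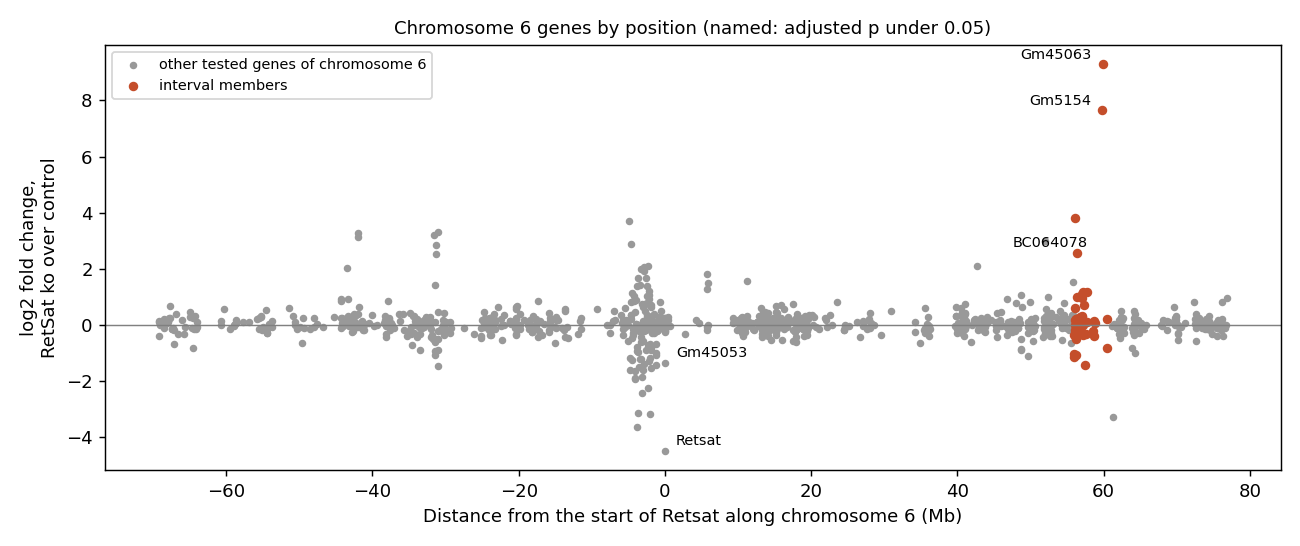
Log2 fold change of RetSat ko over control (y axis) of the 1087 tested genes of chromosome 6 against distance in Mb from the start of Retsat (x axis), with interval members in red and genes at an adjusted p under 0.05 named. Retsat lies at -4.49 at distance 0, and 3 of the named genes lie in the interval.

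The receptor families (Klr genes) held 21 members, of which 18 were tested. None passed in edgeR or limma-voom, and DESeq2 gave an adjusted p to only 3 of them (Klrd1, Klra2 and Klra17), none under 0.05. An unadjusted p under 0.05 was found for 4 of 18 in edgeR, against 12.2% of all tested genes, and for 6 of 18 in limma-voom, against 12.3%. Among all tested genes under 1 CPM, the edgeR share was 5.42%. In edgeR 9 had positive and 9 negative log2 fold changes, with a median of 0.03. Their summed level was 10.4 ± 1.93 CPM in RetSat ko and 11.0 ± 2.99 CPM in control (SD, n = 5 each). In whole tissue, fewer cells of a type and less RNA per cell cannot be told apart, which applies to every receptor below.

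NKR-P1 receptors gave 4 negative and 1 positive log2 fold change among 5 tested members. Klrb1a, which encodes the receptor NKR-P1A, had 0.216, 0.162, 0.137, 0.217 and 0.173 CPM in RetSat ko and 0.278, 0.261, 0.374, 0.552 and 0.395 CPM in control, or 16 to 29 counts per RetSat ko library and 30 to 64 per control library. Klrb1c, which encodes NKR-P1C, the activating receptor that carries the NK1.1 epitope, had 0.206, 0.261, 0.232, 0.187 and 0.108 CPM in RetSat ko and 0.371, 0.269, 0.327, 0.561 and 0.542 CPM in control. For both genes every RetSat ko library lay below every control library. The log2 fold changes were -1.03 ± 0.271 for Klrb1a and -1.06 ± 0.301 for Klrb1c (SE), with unadjusted p of 0.00238 and 0.00415 and an edgeR adjusted p of 0.291 for each. Leaving out 1 library at a time gave -1.14 to -0.85 for Klrb1a and -1.18 to -0.90 for Klrb1c, with adjusted p from 0.0556 and 0.0832 upward.

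The promoters of Klrb1a and Klrb1c are shown because for both genes the RetSat ko libraries lay below the control libraries. Each covers 300 bases around the start of the gene, most of them before it (RefSeq, GRCm38.p6, minus strand), at chr6:128622885-128623184 for Klrb1a and chr6:128788592-128788891 for Klrb1c. Capitals mark matches on either strand to the RUNX core TGTGGT and the ETS core AGGAAG, motifs of factor families that act in lymphocytes.
Klrb1a: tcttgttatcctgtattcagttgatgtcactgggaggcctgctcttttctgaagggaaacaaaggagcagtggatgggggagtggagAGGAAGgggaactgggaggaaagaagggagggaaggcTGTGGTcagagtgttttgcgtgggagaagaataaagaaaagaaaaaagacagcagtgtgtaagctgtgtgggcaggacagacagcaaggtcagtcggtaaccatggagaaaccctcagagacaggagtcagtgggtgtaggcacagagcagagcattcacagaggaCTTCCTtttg
Klrb1c: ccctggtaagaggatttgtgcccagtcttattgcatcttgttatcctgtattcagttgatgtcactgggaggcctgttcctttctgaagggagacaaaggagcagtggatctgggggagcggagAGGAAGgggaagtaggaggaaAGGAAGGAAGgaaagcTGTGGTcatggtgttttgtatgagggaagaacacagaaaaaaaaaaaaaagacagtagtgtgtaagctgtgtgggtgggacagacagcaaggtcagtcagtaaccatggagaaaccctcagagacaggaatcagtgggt
The promoters share 236 of 265 aligned bases (89.1%). Klrb1a has 1 match to TGTGGT and 2 to AGGAAG, and Klrb1c has 1 and 3, of which 2 overlap by their ends. Over all 32851 promoters of this length, 16.8% hold TGTGGT and 35.4% hold AGGAAG. Among 45 promoters found for 38 members, 9 and 21 hold them, and among 22 Klr promoters 8 and 8 (36.4% each). Promoters and not genes are counted here, and similar ones such as those of Klrb1a and Klrb1c count separately. The shares were not tested against each other. A match is a description of these letters and not a site of binding.

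The other NKR-P1 genes overlapped between the groups. Klrb1b, an inhibitory receptor whose ligand is Clec2d, had 0.293 ± 0.187 CPM in RetSat ko and 0.419 ± 0.128 CPM in control (SD, n = 5 each), and its log2 fold change was -0.52 ± 0.400 (SE; edgeR adjusted p = 0.618). Klrb1 had 0.478 ± 0.202 CPM in RetSat ko and 0.312 ± 0.155 CPM in control, with 0.61 ± 0.376 (adjusted p = 0.528), and Klrb1f one of -0.03 ± 0.460 (adjusted p = 0.985). Near-identical copies bear on these values: 9.92% of the 50-base windows of Klrb1a, 17.0% of those of Klrb1c and 27.2% of those of Klrb1b occur in transcripts of another gene.

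In the CD94/NKG2 cluster and its neighbours, 5 of 6 tested members had positive log2 fold changes, and Klrd1 a negative one. Klrd1 encodes CD94, the common partner chain of the NKG2 receptors, and led this group in level per kb. It had 2.84, 1.99, 2.78, 1.95 and 2.19 CPM in RetSat ko and 2.29, 3.61, 1.88, 4.19 and 2.90 CPM in control. The groups overlapped, with the 2 highest values in control 4 and control 2, and the log2 fold change was -0.34 ± 0.217 (SE; edgeR adjusted p = 0.543). Klrk1, which encodes the activating receptor NKG2D, had 0.431, 0.847, 0.798, 0.405 and 0.390 CPM in RetSat ko and 0.148, 0.276, 0.150, 0.682 and 0.221 CPM in control. All RetSat ko libraries lay above 4 of 5 control libraries, control 4 being the exception, and the log2 fold change was 0.95 ± 0.433 (SE; unadjusted p = 0.0486, edgeR adjusted p = 0.407).

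Klri1, a receptor chain that can be paired with Klre1, had 0.578, 0.261, 0.455, 0.420 and 0.375 CPM in RetSat ko and 0.130, 0.200, 0.150, 0.363 and 0.129 CPM in control. Here too control 4 was the control library that overlapped the RetSat ko range. The log2 fold change was 1.10 ± 0.334 (SE; unadjusted p = 0.00649, edgeR adjusted p = 0.293). Its neighbour Klri2 had 0.130 ± 0.0309 CPM in RetSat ko and 0.0576 ± 0.0587 CPM in control (SD, n = 5 each), with 1.18 ± 0.716 (adjusted p = 0.520). Klre1 had a log2 fold change of 0.09 ± 0.439. Klrc1, the inhibitory chain NKG2A, had one of 0.29 ± 0.754, which was -0.62 without RetSat ko 1, the library with its highest value of 0.490 CPM, and -0.68 in limma-voom. RetSat ko 2 held no counts of Klrc1, and 38.6% of the 50-base windows of Klrc1 occur in transcripts of another gene.

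**Figure D4:**
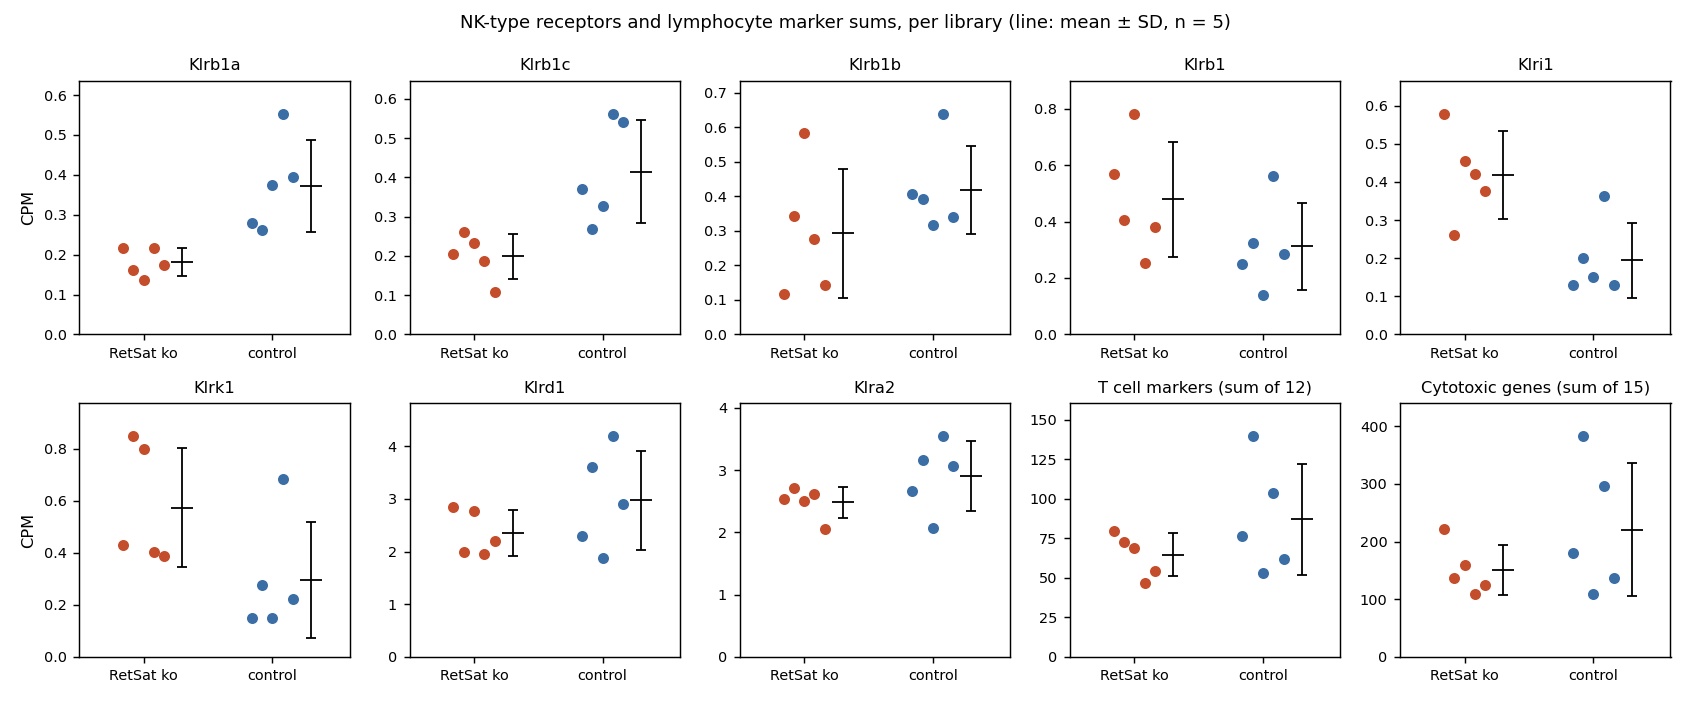
CPM (y axis) in each RetSat ko and control library (points) for 8 receptor genes and for the sums of the T cell and cytotoxic lymphocyte marker lists, with the mean and SD (n = 5) beside each group. Klrb1a and Klrb1c are lower in all 5 RetSat ko libraries than in any control library; control 4 is the single high control point of Klrk1.

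Ly49 receptors had 14 annotated genes in the interval with pseudogenes counted, 8 members and 7 tested members. Of the tested members, 3 had positive and 4 negative log2 fold changes. Klra2 and Klra17 had the highest levels per kb, followed by Klra5. Klra2 had 2.53, 2.71, 2.50, 2.61 and 2.06 CPM in RetSat ko and 2.67, 3.16, 2.08, 3.54 and 3.07 CPM in control, with a log2 fold change of -0.23 ± 0.154 (SE; edgeR adjusted p = 0.569). Klra5 had 0.774, 0.595, 0.866, 0.592 and 0.678 CPM in RetSat ko and 0.306, 0.115, 0.552, 0.673 and 0.524 CPM in control. All but control 4 of the control libraries lay below the RetSat ko range, and the log2 fold change was 0.69 ± 0.364 (SE; adjusted p = 0.459).

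Several Ly49 genes rested on single libraries. Klra3 had 0.730 CPM in control 2 and 0.0748 to 0.110 CPM in the other control libraries, against 0.0991 to 0.353 CPM in RetSat ko. Its log2 fold change of 0.10 ± 0.644 was 1.33 without control 2 and between -0.12 and -0.06 without each of 6 other libraries. Klra6 also stood highest in control 2, at 0.622 CPM. Klra1 had 0.872 CPM in RetSat ko 1 and 0.0300 to 0.101 CPM in the other RetSat ko libraries, against 0.0185 to 0.138 CPM in control. Shared sequence limits these readings, since 20.7% of the 50-base windows of Klra3 and 31.5% of those of the untested Klra9 occur in transcripts of another gene.

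Marker genes of lymphocytes from outside the interval are given beside these receptors. T cell markers summed to 46.6 to 79.5 CPM in RetSat ko and 53.3 to 139 CPM in control, and 11 of 12 tested markers had negative log2 fold changes, with a median of -0.37. Cytotoxic lymphocyte genes summed to 109 to 222 CPM in RetSat ko and 109 to 382 CPM in control, and 11 of 13 tested genes were negative, with a median of -0.41. None of these markers passed in edgeR or limma-voom, nor in DESeq2 among the 12 T cell and 12 cytotoxic genes to which it gave an adjusted p, and 1 T cell marker, Cd5, had an unadjusted edgeR p under 0.05. Both sums were highest in control 2 and control 4. With the mean of these lists as a covariate, the log2 fold change was -1.05 for Klrb1a, -1.03 for Klrb1c, 1.36 for Klri1 and 1.43 for Klrk1, against -1.03, -1.06, 1.10 and 0.95 without it (edgeR adjusted p with the covariate = 0.223, 0.237, 0.197 and 0.205). Klrg1, an inhibitory lectin receptor of memory lymphocytes encoded elsewhere on chromosome 6, had 0.234 ± 0.116 CPM in RetSat ko and 0.514 ± 0.140 CPM in control (SD, n = 5 each; adjusted p = 0.298).

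The natural cytotoxicity receptor gene Ncr1, a defining marker of natural killer cells, was low but tested. It had 0.155 ± 0.0923 CPM in RetSat ko and 0.134 ± 0.0944 CPM in control (SD, n = 5 each; edgeR adjusted p = 0.907). Of 9 tested genes for adaptors and ligands of these receptors, 4 had positive and 5 negative log2 fold changes, and none passed in edgeR or limma-voom or had an unadjusted edgeR p under 0.05. DESeq2 gave an adjusted p to 8 genes of this list, none under 0.05.

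Among the Clec2 lectins, Clec2h, Clec2e and Clec2d were the abundant members. Clec2h, an epithelial lectin of the gut, had 936, 525, 732, 568 and 540 CPM in RetSat ko and 482, 435, 723, 660 and 616 CPM in control, with RetSat ko 1 the highest library. The groups overlapped and the log2 fold change was 0.18 ± 0.186 (SE; edgeR adjusted p = 0.724). Clec2e had 252, 147, 188, 88.4 and 139 CPM in RetSat ko and 193, 153, 251, 172 and 225 CPM in control, with -0.29 ± 0.252 (adjusted p = 0.669). Clec2d, the ligand of NKR-P1B, had 67.0, 47.5, 48.9, 33.1 and 34.2 CPM in RetSat ko and 41.8, 41.5, 42.8, 54.1 and 42.9 CPM in control, with 0.05 ± 0.178 (adjusted p = 0.934). Per kb of exon the levels were 244 ± 64.6 CPM in RetSat ko and 215 ± 44.8 CPM in control for Clec2h, 77.6 ± 29.1 and 94.7 ± 18.8 CPM for Clec2e, and 38.0 ± 11.4 and 36.8 ± 4.39 CPM for Clec2d (SD, n = 5 each), so Clec2h stood above Clec2e and Clec2e above Clec2d on average in both groups.

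The NKR-P1 receptors stood far below Clec2h, Clec2e and Clec2d. Klrb1b, whose ligand is Clec2d, had 0.131 ± 0.0839 CPM per kb in RetSat ko and 0.188 ± 0.0575 CPM per kb in control (SD, n = 5 each). Klrb1a had 0.114 ± 0.0218 CPM per kb in RetSat ko and 0.233 ± 0.0730 CPM per kb in control. Clec2i, another ligand of the NKR-P1 family, had 0.430 ± 0.191 CPM in RetSat ko and 0.497 ± 0.239 CPM in control, and Cd69, an early activation antigen of lymphocytes, 0.827 ± 0.367 CPM in RetSat ko and 1.02 ± 0.652 CPM in control. Of 6 tested genes of this group, 2 had positive and 4 negative log2 fold changes. None passed in edgeR or limma-voom or had an unadjusted edgeR p under 0.05, and of the 4 with an adjusted p in DESeq2 none passed there.

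The Dectin-1 cluster, whose lectins sit on myeloid cells, platelets and endothelium, had 5 tested members, all with positive log2 fold changes of 0.12 to 0.27 and none past the test in edgeR or limma-voom, or in DESeq2 for the 3 with an adjusted p there, or with an unadjusted edgeR p under 0.05. Clec7a, the fungal glucan receptor Dectin-1, had 6.18 ± 0.742 CPM in RetSat ko and 5.69 ± 2.09 CPM in control (SD, n = 5 each). Clec9a, a receptor of cross-presenting dendritic cells for dead cells, had 1.12 ± 0.206 CPM in RetSat ko and 0.959 ± 0.161 CPM in control, and Clec1b, the platelet receptor CLEC-2, 1.77 ± 0.394 CPM in RetSat ko and 1.53 ± 0.317 CPM in control. Clec9a and Clec1b share exon bases, so reads there cannot be told apart. Myeloid markers from outside the interval summed to 171 to 239 CPM in RetSat ko and 173 to 269 CPM in control.

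**Figure D5:**
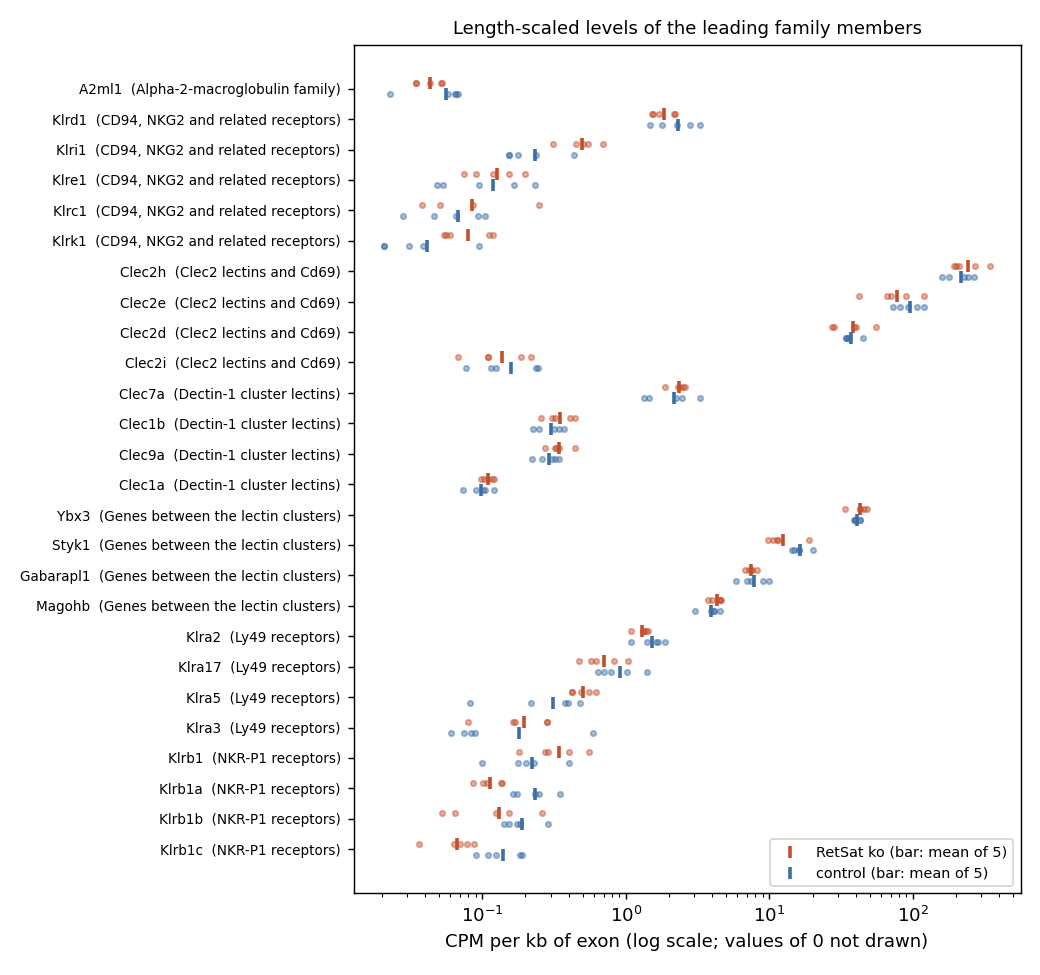
CPM per kb of exon on a log scale (x axis) for the leading members of each family (y axis), with 1 point per library and a bar at the mean of 5, RetSat ko above control. Clec2h, Clec2e, Ybx3 and Clec2d have the highest levels, and the receptor genes lie below them in both groups.

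Genes that are no receptors lie between the lectin clusters. Styk1, a receptor-like kinase gene, had 110, 62.1, 66.8, 67.6 and 57.5 CPM in RetSat ko and 87.2, 84.7, 93.9, 117 and 94.7 CPM in control. All RetSat ko libraries but RetSat ko 1 lay below every control library. The log2 fold change was -0.39 ± 0.168 (SE; unadjusted p = 0.0392, edgeR adjusted p = 0.387), and without RetSat ko 1 it was -0.59 with an adjusted p of 0.0246, in a fit that called 4.45% of all tested genes. Ybx3, a cold-shock domain protein gene, had 131 ± 17.0 CPM in RetSat ko and 125 ± 6.54 CPM in control (SD, n = 5 each). Magohb, of the exon junction complex, and Gabarapl1, of the autophagy machinery, had log2 fold changes of 0.13 ± 0.114 and -0.07 ± 0.127 (SE). None of these passed (edgeR adjusted p = 0.799, 0.669 and 0.841).

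Predicted loci, named by clone or number, made up 121 of 207 genes in the interval, and 82 of them had no count. Of 28 members in this class, 16 were tested, 12 with positive and 4 with negative log2 fold changes, and all 3 called genes of the interval belong to it. Their summed level was 22.6 to 28.3 CPM in RetSat ko and 16.4 to 19.1 CPM in control, and BC064078 alone averaged 6.46 CPM in RetSat ko and 1.08 CPM in control. Gm44009, a long intergenic RNA beside Klrb1a, had 0.0588, 0.0901, 0.0429, 0.120 and 0.0938 CPM in RetSat ko and 0.167, 0.0768, 0.224, 0.276 and 0.165 CPM in control. The groups overlapped through control 2, and the log2 fold change was -1.14 ± 0.400 (SE; unadjusted p = 0.0146, edgeR adjusted p = 0.321).

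Bitter taste receptors, found in taste cells and in tuft cells of the gut, gave no member. Of 24 Tas2r genes in the interval, 23 had no count in any of the 10 libraries and 1 had a single count. At this depth the limit that a count of 0 allows is 3 counts per library, for counting error only.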

How the data were processed

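The data are raw counts of reads per gene from 10 jejunum RNA sequencing libraries, 5 RetSat ko and 5 control by their labelled genotype. The deposited counts were made with featureCounts 2.0.1 over GENCODE M28 exons (GRCm39), per the file headers, with no option for strand, read pairs or reads with several alignments. Trimmomatic and STAR were used on the reads before counting, per the submitters' processing notes. Reads on bases that overlapping genes share therefore cannot be assigned to a single gene, and reads that fit several copies are not counted. Of all values from 1 to 20, 64.5% were even, so read pairs may have been counted more than once, and counting intervals, limits and bounds cover counting error only.

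Counts were tested in R 4.3.3 with edgeR 4.0.16 (filterByExpr, TMM factors, robust quasi-likelihood F-test without covariates, two-sided), and p-values were adjusted by Benjamini-Hochberg over 18654 genes with 0.05 as the threshold. SE is the absolute log2 fold change divided by the square root of F. CPM divide the deposited counts by the TMM-adjusted library size in units of 1000000, and single genes are ranked by level per kb of exon. The median levels of sets of genes and the limit of 1 CPM use CPM not scaled by length. Where control had 0 counts, the bound uses 3 counts over the group. Alternatives were RLE factors, no filter, 1 CPM in 5 libraries, DESeq2 1.42.0, limma-voom (limma 3.58.1), the replicate number as a block and leaving out each library. Fits without the 3 libraries richest in B cell markers or the 4 richest in acinar markers and a lymphocyte covariate were added after seeing the data.

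The members, gene lists and tests were chosen with earlier results of these data known. Named are members under an adjusted or unadjusted p of 0.05, members with at least 50 counts in one group and 0 in the other, the 4 highest per kb in each family, the members and neighbours at the edges, the 2 smallest p of each outside list, and Retsat; some of the genes so named are given by list only, and others are said to be named after their values were seen or are given to complete a family. Gene types and transcripts came from GENCODE M21, an older build used for names and sequences only, and similarity was searched with blastn 2.17.0. All 70 members had a symbol. Over 45 pairs of libraries, the chi-square per degree of freedom was at least 49.6, so none was a duplicate. On simulated counts of these libraries (18302 genes tested), RetSat ko against control recovered 28.6% of the genes altered 1.5-fold. It recovered 70.2% at 2-fold and 93.9% at 4-fold, with 6 false calls among 147. The altered genes were drawn over all levels, with a median of 7.01 CPM for all tested genes and 0.435 CPM for the members. The data themselves gave 6 calls, so these shares do not give the recovery for low members such as the receptors.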

Additional observations from a re-analysis of the deposited data

Results flagged for a closer look

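Of 72 groups of 5 libraries examined for the named members, 7 held a library whose gap to the nearest other library exceeded Dixon's 95% critical value for its share of the group's range, where chance flags about 1 in 20 groups. The control groups of Gm45063, Gm5154 and Prh1 are among the 72 but, at 0 throughout, could not be flagged. In RetSat ko, Styk1 stood at 110 CPM in RetSat ko 1, against 57.5 to 67.6 CPM in the other RetSat ko libraries. In control 4, Klrk1 stood at 0.682 CPM (others 0.148 to 0.276), Klrb1b at 0.639 CPM (others 0.318 to 0.408), BC064078 at 1.7 CPM (others 0.804 to 1.05) and Clec2d at 54.1 CPM (others 41.5 to 42.9). Klra3 stood at 0.73 CPM in control 2 (others 0.0748 to 0.110), and A2ml1 at 0.176 CPM in control 1 (others 0.445 to 0.524). Control 4 is thus the library of 4 of the 7 flags, and it held 71.0 CPM of B cell markers and 104 CPM of T cell markers, against 7.92 to 14.2 CPM and 53.3 to 139 CPM in the other control libraries. The part of these markers in the flags was not tested.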

How the results depend on the processing

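BC064078 was called in every one of the 19 alternative settings, and the members called numbered 2 to 4 except in 3 of them. A filter of 1 CPM in 5 libraries left 16 members tested and called 1, with 4 at an unadjusted p under 0.05, where 15.7% of all tested genes lay. The replicate block called 1, with an adjusted p of 0.270 for Gm45063 and 0.447 for Gm5154 (libraries with the same number did not deviate together, with correlations of -0.15 to 0.0021, and share only a number). Leaving out single libraries gave 2 to 6 calls, with 6 without RetSat ko 1, when 846 of 19001 genes were called, and 10 to 13 members at an unadjusted p under 0.05, against 8.18 to 23.7% of all tested genes in those fits. DESeq2 called BC064078 and Gm45769 and gave an adjusted p to 20 of 69 members, so Gm45063, Gm5154 and all but 3 of 18 tested Klr genes have none there. Of 592 recomputed values of 33 named genes, 554 kept their direction and side of the threshold. Those that turned direction were never called, and the cause was not tested. Without the libraries rich in B cell markers the log2 fold change was -0.0079 for Clec1a, -0.021 for Magohb and -0.027 for Klra3. Without those rich in acinar markers it was -0.12 for Clec2d, 0.15 for Gabarapl1, -0.26 for Klra3 and -0.11 for Klrc1. The lymphocyte covariate gave 0.18 for Clec2i, and Klrc1 was -0.68 in limma-voom and -0.12 with the replicate block. Leaving out single libraries gave -0.13 to 0.15 for Clec2d, -0.013 to 0.32 for Clec7a, -0.16 to 0.023 for Gabarapl1, -0.12 to 1.33 for Klra3, -0.62 to 0.61 for Klrc1 and -0.12 to 0.49 for Klre1. Of the members, 19 were too low to test and 35 of those tested lay under 1 CPM, which limits what these libraries can show for the receptors.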

Other observations

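Of the 70 members, 40 were annotated as protein-coding and 17 as some kind of pseudogene. Windows of 50 bases were shared with transcripts of another gene in over 10% of the sequence for 20 members and in over 50% of it for 5, while 22 members shared none. Small counts of the Ly49 genes were even in 84.8% of 33 values from 1 to 20, against 64.5% over all genes. Adipocyte markers had positive log2 fold changes in 6 of 7 tested genes, and B cell markers in 8 of 8 and acinar markers in 9 of 9. Jejunal epithelium markers had negative ones in 8 of 8. None of these passed in edgeR or limma-voom, or in DESeq2 where it gave an adjusted p, and among the lists with positive values 1 adipocyte marker, Retn, had an unadjusted edgeR p under 0.05.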
